A study of Mus musculus with 2 samples.

Results

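The genes of fatty acid synthesis, elongation, desaturation, activation, storage and oxidation were compared between 2 cultures of the mouse colon carcinoma line CT26 on Illumina MouseWG-6 v2.0 bead arrays. The first culture was transduced with pLKO.1-shCDK8, a vector expressing a short hairpin RNA against CDK8, and the second with the empty vector pLKO.1. Each group had 1 array, so no difference below has a replicate check or a p-value, and each comparison is between these arrays. Whether the transduced cells were a pool or 1 clone is not given in the sources used here, and both cultures carry the vector backbone. In total RNA from a culture, fewer cells of a kind and less RNA per cell cannot be told apart. The genes are 34 named enzymes, regulators and lipid droplet proteins, taken from the array by gene symbol or Entrez gene number. Of the 31165 genes of the array, 32 were among them, with 62 probes. Acaca, an acetyl-CoA carboxylase, and Hadha, a subunit of the mitochondrial trifunctional protein, had no probe under their own name.

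Fatty acids are built in the cytosol from acetyl-CoA, are lengthened and desaturated in the endoplasmic reticulum, and are activated by coupling to coenzyme A before use. They are then stored as triglyceride in lipid droplets, built into membranes, or carried into mitochondria by the carnitine shuttle and oxidized. CDK8 is the kinase of the Mediator complex, and in mouse liver it is known to phosphorylate SREBP-1c, the lipogenic transcription factor encoded by Srebf1, which marks that factor for degradation.

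Cdk8 had a raw intensity of 317.9 on the knockdown array and of 992.5 on the control array at the only 1 of its 3 probes above background. Its log2 difference (knockdown minus control, as throughout) was -1.99, in the direction of the label. A probe counted as detected above an intensity of 93.81 on the knockdown array and of 94.55 on the control array, which 46.8% of probes passed in the knockdown and 45.9% in the control. Of markers of the intestinal epithelium, Epcam, Krt8, Krt18, Krt19 and Vil1 were not above background on either array, and Cdh1, Cdx1 and Cldn7 were detected close to background, with differences from -0.14 to 0.10. Krt20 (log2 level 4.57 in the knockdown and 5.51 in the control, 1.92-fold lower) and Cdx2 (5.13 in the knockdown and 6.06 in the control, 1.91-fold lower) were detected and dim. Of 7 adipocyte markers, Adipoq, Retn, Plin1, Cidec and Fabp4 were not above background, Lep was level at 4.70 (log2) on both arrays, and Cfd was detected on the knockdown array only. Alb, Apoa2, Ttr, Fabp1 and Tat of the liver list, Ptprc, Cd3e, Adgre1 and Lyz2 of the leukocyte list and Pecam1, Cdh5, Tek and Vwf of the endothelial list were also not above background. Detected members of these lists were Cd14, bright and level at -0.01, Cd68 at -0.39, Csf1r at -0.01, Kdr at 0.26 and Apoa1 at -0.20, and Serpina1a was detected on the knockdown array only, at least 1.43-fold higher. Of 8 fibroblast markers, 7 were detected on each array, with a summed normalized intensity of 937 in the knockdown and 627 in the control. They went both ways, with Col1a1 (1.41), Col1a2 (0.84), Dcn (0.58) and Pdgfra (0.19) higher, Lum detected in the knockdown only, Pdgfrb (2-fold) and Col3a1 (1.51-fold) lower, and Postn detected in the control only. The part of all these markers in the values below was not tested.

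One elongase gene stood apart from the other fatty acid genes. Elovl5, which lengthens polyunsaturated fatty acids, was 3.26-fold lower in the knockdown, while the family as a whole was centred on no difference. Of the 34 genes, 29 were detected on both arrays, and their median difference was 0.01, against 0.00 over the 13503 genes of the array detected on both. Cpt1a was detected on the knockdown array only, and Fasn and Elovl7 on neither array. Below 0 were 14 of the 29 genes (48.3%), against 50.7% of all genes, and above 0 were 15 (51.7%), against 48.9%. The storage genes had a median of -0.24 over 7 genes (-0.50 to -0.19 over the alternatives), the value of Lipe, which was close to background. Elongation and desaturation genes had a median of -0.09 over 8. Regulation and synthesis genes had a median of 0.34 over 5 genes, which other ways of processing put between 0.13 and 0.43, oxidation genes of 0.15 over 5, and activation genes of 0.06 over 4. The leanings of the storage genes and of the regulation and synthesis genes were not seen in the list of other pathway genes described further below. Its medians were 0.05 for storage (14 genes) and 0.00 for regulation and synthesis (17 genes). They were 0.06 for elongation and desaturation and, with the same sign as in the listed genes, 0.04 for activation and 0.10 for oxidation.

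Differences of more than 1.5-fold were few. Lower by at least that were Elovl5, Dgat1 and Dgat2, 3 of 29 genes (10.3%), against 2.24% of all genes. Only Acacb was at least 1.5-fold higher, 1 of 29 (3.45%), against 2.09% of all genes. Elovl5 was the only one past 2-fold, against 0.548% of all genes at least 2-fold lower, and 0 of the 29 were 2-fold higher, against 0.496%. A smaller yardstick is the SD of the differences between probes of the same gene, 0.215 when pooled over 4410 genes, which describes probes on these arrays and not cultures. Beyond it, 9 of 29 genes (31%) were lower, against 17.4% of all genes, and 6 (20.7%) were higher, against 16.5%. The 9 lower genes were Elovl5, Elovl6, Fads2, Acsl4, Dgat1, Dgat2, Plin2, Pnpla2 and Lipe, and the 6 higher ones Srebf1, Acacb, Acss2, Fads3, Lpin1 and Cpt2. Without scaling between the arrays, 377 genes of the array were 1.5-fold higher and 229 lower, against 282 and 302 as reported, and the same 3 lower and 1 higher fatty acid genes passed.

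**Figure D1:**
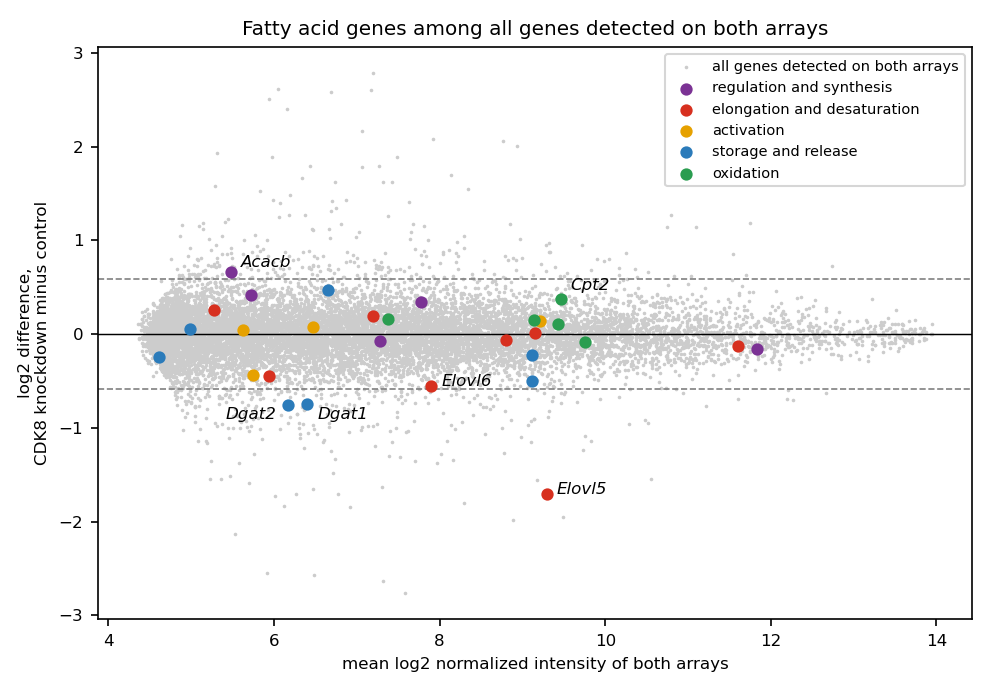
Each grey point is 1 of 13503 genes detected on both arrays, by its mean log2 normalized intensity (horizontal axis) and its log2 difference, knockdown minus control (vertical axis), with the 29 fatty acid genes coloured by role and dashed lines at 1.5-fold. Elovl5 lies at -1.71, apart from the other fatty acid genes, which lie between -0.76 and 0.66.

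The promoters of 4 genes, chosen after their values were seen, are shown: Elovl5 and Elovl6 as the elongase genes lower in the knockdown by more than the spread between probes, and Lpin1 and Cpt2 as genes higher by more than that at each of several detected probes. They come from RefSeq, build GRCm38.p6, and run 5′ to 3′ on the gene's strand from 250 bases before to 50 after its start. Capitals mark the letters of 5 motifs on either strand: TCACNCCAC, the core of the sterol regulatory element read by SREBP factors, the E-box CACGTG, the CCAAT box, the GC box GGGCGG and the nuclear receptor half-site AGGTCA. No 2 marked motifs overlap.
Elovl5 promoter, chr9:77917115-77917414, plus strand: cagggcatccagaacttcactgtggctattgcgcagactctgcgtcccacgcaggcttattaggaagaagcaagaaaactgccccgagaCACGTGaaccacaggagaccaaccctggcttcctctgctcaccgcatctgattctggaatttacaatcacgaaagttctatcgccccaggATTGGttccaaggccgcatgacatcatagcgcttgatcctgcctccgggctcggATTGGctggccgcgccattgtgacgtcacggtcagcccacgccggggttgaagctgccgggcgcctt
Elovl6 promoter, chr3:129532136-129532435, plus strand: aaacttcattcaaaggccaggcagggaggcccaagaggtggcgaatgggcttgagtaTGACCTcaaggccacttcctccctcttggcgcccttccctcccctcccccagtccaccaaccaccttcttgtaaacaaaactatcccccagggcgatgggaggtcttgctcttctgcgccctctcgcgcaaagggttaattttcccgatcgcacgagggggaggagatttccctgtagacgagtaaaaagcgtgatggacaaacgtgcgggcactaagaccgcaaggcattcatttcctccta
Lpin1 promoter, chr12:16610917-16611216, minus strand: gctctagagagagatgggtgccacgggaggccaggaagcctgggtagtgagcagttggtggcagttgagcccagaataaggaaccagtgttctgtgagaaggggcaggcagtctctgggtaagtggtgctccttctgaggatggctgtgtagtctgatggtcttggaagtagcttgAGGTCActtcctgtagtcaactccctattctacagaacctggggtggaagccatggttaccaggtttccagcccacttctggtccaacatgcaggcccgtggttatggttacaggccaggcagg
Cpt2 promoter, chr4:107923540-107923839, minus strand: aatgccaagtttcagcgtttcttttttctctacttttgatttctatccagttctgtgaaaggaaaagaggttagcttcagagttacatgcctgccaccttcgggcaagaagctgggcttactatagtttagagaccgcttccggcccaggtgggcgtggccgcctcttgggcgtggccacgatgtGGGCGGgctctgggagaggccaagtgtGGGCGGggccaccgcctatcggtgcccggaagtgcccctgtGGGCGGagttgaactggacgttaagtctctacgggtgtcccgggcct

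The Elovl5 window holds 1 E-box and 2 CCAAT boxes, written there as ATTGG on the reverse strand, and the other 3 windows hold neither. An E-box is present in 7.15% of the 32851 promoter windows of the table and a CCAAT box in 37.4%. The Elovl6 and Lpin1 windows each hold 1 nuclear receptor half-site, present in 16.3% of all windows, and the Cpt2 window holds 3 GC boxes, a motif present in 35.7%. The sterol element core occurs in 1.24% of all windows and in 1 of 36 windows of fatty acid genes, a second Acsl1 start. These 36 windows cover 29 of the 34 genes, and Scd1, Scd2, Fads1, Dgat1 and Dgat2 have no entry. GC boxes were in 22 of the 36 windows, CCAAT boxes in 16, half-sites in 10 and E-boxes in 3. A match is a description of letters and not a binding site.

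Of the 5 detected genes of regulation and synthesis, 3 were higher in the knockdown by more than the spread between probes and 0 were lower, against 16.5% and 17.4% of all genes. Srebf1 had raw intensities of 134.3 in the knockdown and 117.6 in the control at its detected probe, a difference of 0.42. Acacb, the acetyl-CoA carboxylase of the mitochondrial surface, whose product inhibits the carnitine shuttle, read 129.3 in the knockdown and 107.8 in the control, a difference of 0.66 or 1.58-fold. Its other probe, at 93.4 in the knockdown and 87.2 in the control, was not above background on either array, and other ways of processing gave 0.25 to 1.04. Both genes lay close to the detection limit. Acss2, which makes acetyl-CoA from acetate, was brighter, with 327.1 in the knockdown and 261.7 in the control, a difference of 0.34. The second Acss2 probe, at 93.8 in the knockdown and 94.5 in the control, was not above background. Other ways of processing put Acss2 between 0.16 and 0.43. Acly, which splits citrate into cytosolic acetyl-CoA, read 3640.5 in the knockdown and 3808.3 in the control, a difference of -0.16. Me1, listed as Mod1, is the malic enzyme that supplies NADPH, and read 228.2 in the knockdown and 225.8 in the control, a difference of -0.07. Fasn, the fatty acid synthase, read 88.1 in the knockdown and 90.7 in the control at its single probe, not above background on either array. No fold is therefore given for this central enzyme of the pathway. A probe under the clone name A530025K05Rik, which RefSeq lists as a synonym of Acaca, was likewise not above background, at 88.6 in the knockdown and 92.7 in the control. Clone-name probes of Fads1 (91.9 in the knockdown, 94.6 in the control) and Lipe (85.7 in the knockdown, 85.3 in the control) were also not joined to their genes. Only the Fads1 one was above background, on the control array only.

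**Figure D2:**
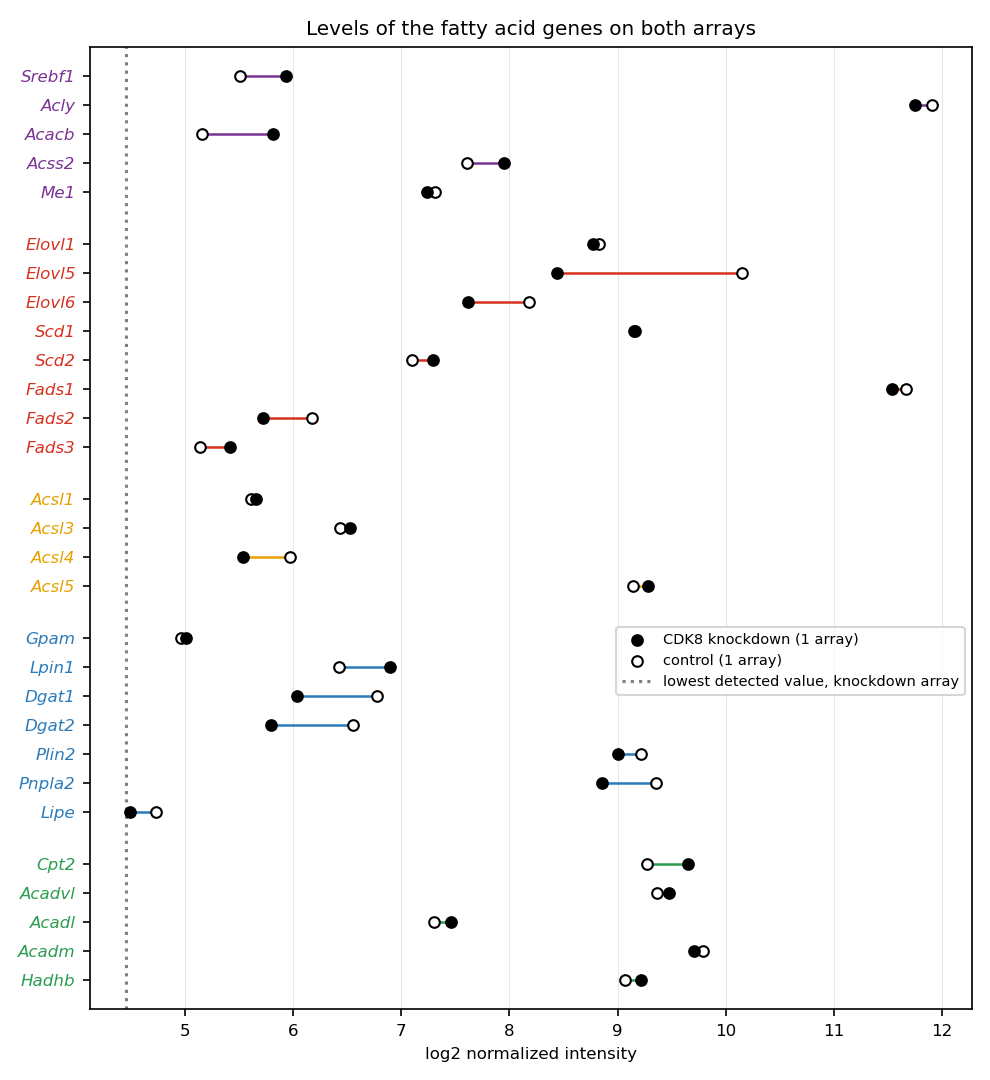
Log2 normalized intensity of the 29 fatty acid genes detected on both arrays, on the knockdown array (filled) and the control array (open), with gene names coloured by role group in the order of the text. Distances within a row are comparable, positions of different genes are not, since each probe has its own brightness. The longest line is that of Elovl5, with 8.44 in the knockdown and 10.15 in the control.

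The elongase genes differed among themselves, from -1.71 to -0.06. Elovl5 read 432.1 on the knockdown array and 1179.4 on the control array, with log2 values of 8.44 in the knockdown and 10.15 in the control and a difference of -1.71. Both intensities are far above the detection limits, and Elovl5 took rank 14 from the lowest among the 13503 genes. It rests on 1 probe. Elovl6, which lengthens palmitate to stearate, was lower too, with 275.1 in the knockdown and 352.2 in the control, a difference of -0.55. Its second probe was not above background. Elovl1, which makes saturated and monounsaturated very long chains, was level at all 4 of its probes, which gave differences from -0.10 to 0.00 and a mean of -0.06. Its brightest probe read 1302.3 in the knockdown and 1291.4 in the control. Elovl7 was not above background on either array, at 92.2 in the knockdown and 90.5 in the control.

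None of the nearest neighbours of Elovl5 detected on both arrays was lower to a like degree. In the order of RefSeq genes on chromosome 9, the 4 nearest detected protein-coding genes on one side were Gclc at -0.01, Lrrc1 at 0.48, Tinag at -0.19 and Bmp5 at -0.07. On the other side Fbxo9 was at -0.21 and Cilk1 at 0.01. Beyond these lie Gsta4 at 1.70 and Gsta1 at 2.61, glutathione transferase genes that were higher in the knockdown. The median difference of the 551 detected genes of chromosome 9 was -0.01. These neighbours were looked at after the value of Elovl5 was seen. A neighbour detected on the control array only would not be among them. Gclc, Tinag and Bmp5 had log2 control levels of 4.74, 4.83 and 4.68, close to the lowest detected value of 4.47. A fall like that of Elovl5 could not show in these dim genes. A fall of 1.71 would take Lrrc1 and Fbxo9, at 5.50 and 6.10 in the control, below 4.45, the lowest detected knockdown value. A change of the region was not tested.

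Among the listed desaturase genes, Fads2 had the largest difference, and the others lay between -0.13 and 0.26. Scd1, which makes monounsaturated fatty acids such as oleate, read 660.5 in the knockdown and 622.6 in the control, a difference of 0.01 after normalization. Its paralog Scd2 read 234.1 in the knockdown and 204.9 in the control, a difference of 0.19. Both lay within the spread between probes of a gene. Fads1 and Fads2 are the desaturases of polyunsaturated fatty acids, which act in turn with Elovl5. Fads1 was bright, with 3117.8 in the knockdown and 3263.7 in the control, and differed by -0.13. Fads2 differed by -0.45, and its probes disagreed in size, with -0.66 at the probe reading 153.2 in the knockdown and 193.7 in the control and -0.23 at the one reading 107.5 in the knockdown and 113.4 in the control. Fads3, a related desaturase, read 114.9 in the knockdown and 107.6 in the control, a difference of 0.26 close to background. Of Elovl5, Fads1 and Fads2, genes of polyunsaturated fatty acid synthesis, Elovl5 and Fads2 were lower by more than the spread between probes. Fads1 was not, and 17.4% of all genes were lower by more than that spread. These genes are not one of the role groups.

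**Figure D3:**
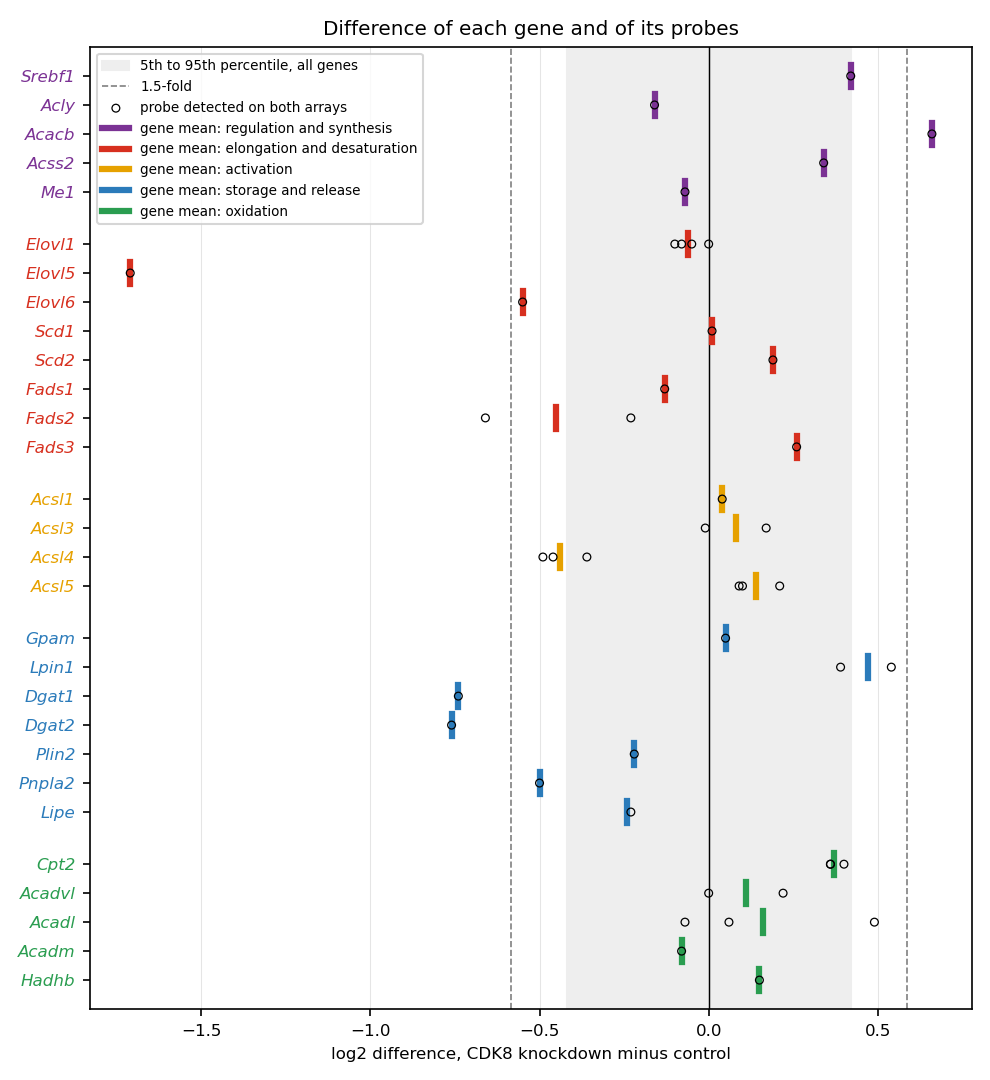
Log2 difference, knockdown minus control, of each of the 29 fatty acid genes (coloured bars, by role) and of each of its probes detected on both arrays (circles), with dashed lines at 1.5-fold and grey shading from the 5th to the 95th percentile of all genes (-0.42 to 0.42). The 3 Cpt2 probes and the 3 Acsl4 probes lie close together, at 0.36 to 0.40 and at -0.49 to -0.36, whereas the Acadl probes spread from -0.07 to 0.49.

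The long-chain acyl-CoA synthetases activate fatty acids, and of Acsl1, Acsl3, Acsl4 and Acsl5 only Acsl4 differed by more than the spread between probes. Acsl6, from the list of other pathway genes, also did, at -0.41 and close to background. Of all genes, 17.4% were lower and 16.5% higher by more than that spread. Acsl4, which prefers arachidonate and related polyunsaturated fatty acids, was lower at each of its 3 detected probes, with log2 differences from -0.49 to -0.36 and a mean of -0.44. The brightest of them read 144.7 in the knockdown and 161.3 in the control, so all 3 are dim. Acsl5 was bright, with 3599.7 in the knockdown and 2954.4 in the control at its brightest probe, and its 3 detected probes gave 0.09 to 0.21, with a mean of 0.14. Acsl3 had a mean of 0.08, with 0.17 at the probe reading 379.8 in the knockdown and 329 in the control. Acsl1 read 123.1 in the knockdown and 120.8 in the control and differed by 0.04.

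Next to Elovl5, the largest decreases were in 2 storage genes. Dgat1 and Dgat2 encode unrelated enzymes that both catalyse the last step of triglyceride synthesis. Dgat1 read 138.8 in the knockdown and 178.8 in the control, a difference of -0.74 or 1.67-fold. Dgat2 read 128.2 in the knockdown and 163.9 in the control, a difference of -0.76 or 1.7-fold. Each rests on 1 probe of low intensity, and with no background correction the differences were -0.40 and -0.38, short of 1.5-fold, as they also were with an offset of 50 in place of 16. Earlier in the same pathway, Lpin1, the phosphatidate phosphatase that makes diacylglycerol, was higher. Its detected probes read 193.3 and 194.6 in the knockdown, against 160.2 and 152 in the control, with differences of 0.39 and 0.54 and a mean of 0.47. Its other 2 probes were not above background. Gpam, the mitochondrial acyltransferase that starts glycerolipid synthesis, was dim and level, with 104.5 in the knockdown and 103.5 in the control. Pnpla2, the lipase that begins triglyceride breakdown, was bright and lower, with 555.4 in the knockdown and 709.2 in the control, a difference of -0.50. Plin2, listed as Adfp, coats lipid droplets and read 599.6 in the knockdown and 649.3 in the control, a difference of -0.22. Lipe, the hormone-sensitive lipase, differed by -0.24 averaged over the probe reading 97.9 in the knockdown and 102.6 in the control and another detected on the control array only, which was at least 1.07-fold lower in the knockdown. Other ways of processing put Lipe between -0.50 and 0.00. Of the 7 storage genes, 5 were lower by more than the spread between probes, against 17.4% of all genes, and 1 was higher, against 16.5%. Plin2 and Lipe were only just past that spread of 0.215. Enzymes of triglyceride synthesis lay on both sides.

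**Figure D4:**
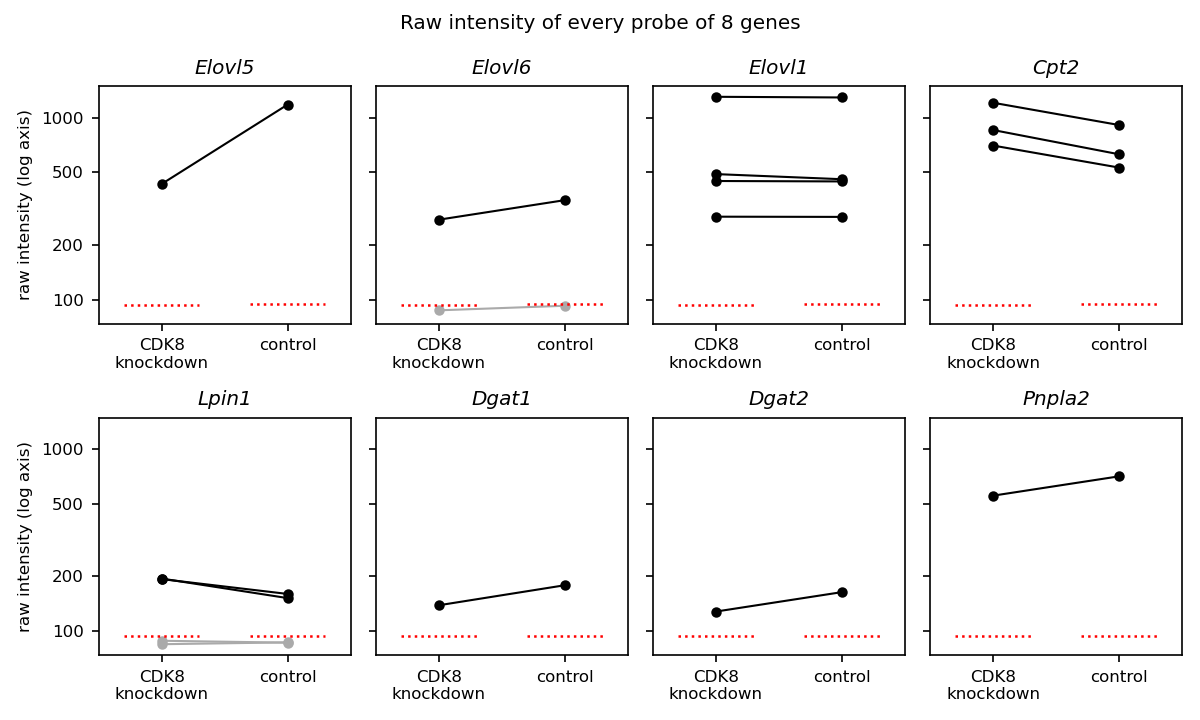
Raw intensity (log axis) of every probe of 8 genes on the knockdown array and on the control array, joined by a line per probe, with black for probes detected on both arrays, grey for probes below the detection limit and red dotted lines for that limit (93.81 in the knockdown and 94.55 in the control). All 3 Cpt2 probes are higher in the knockdown, the 4 Elovl1 probes are nearly level, and Elovl5 is at 432.1 in the knockdown and 1179.4 in the control.

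The oxidation genes detected on both arrays differed little, and 4 of 5 lay above 0, against 48.9% of all genes. Cpt2, the carnitine palmitoyltransferase of the inner mitochondrial membrane, was higher at all 3 of its probes. They read 1207.8, 855.5 and 702.8 in the knockdown, against 911.3, 629.4 and 531.9 in the control, and their differences lay between 0.36 and 0.40. The mean was 0.37, or 1.3-fold, and the distance of 0.04 between the probes was the smallest among the 9 fatty acid genes with at least 2 probes detected on both arrays. Cpt1a, the outer membrane enzyme that limits entry into mitochondria, was detected on the knockdown array only, at 95.9 against 85.8 in the control, and was at least 1.07-fold higher. The reading of 95.9 is just above the detection limit of 93.81. Its other probe, at 88.4 in the knockdown and 86.5 in the control, was not above background on either array. The acyl-CoA dehydrogenases carry out the first step of each oxidation cycle. Acadvl differed by 0.11 and Acadm by -0.08, with intensities of 933.6 in the knockdown and 931.1 in the control for Acadm. Acadl had a mean of 0.16 over 3 probes that disagreed, with -0.07 at the brightest (656.2 in the knockdown and 645.8 in the control) and 0.49 at the next (413.7 in the knockdown and 299.1 in the control). Hadhb, the thiolase subunit of the trifunctional protein, read 688.5 in the knockdown and 593.4 in the control, a difference of 0.15. Only Cpt2 of the 5 oxidation genes detected on both arrays differed by more than the spread between probes. Of all genes, 16.5% were higher and 17.4% lower by more than that spread.

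Of a list of 126 other genes of these pathways, 121 were on the array and 80 were detected on both arrays, with a median of 0.05. Above 0 were 45 (56.2%), against 48.9% of all genes. Higher by more than the spread between probes were 14 (17.5%), against 16.5% of all genes, and lower were 15 (18.8%), against 17.4%. At least 1.5-fold higher were 2 (2.5%), against 2.09%, and at least 1.5-fold lower were 4 (5%), against 2.24%. These last counts changed with the treatment of dim probes, to between 0 and 6 each. For each role, the 3 genes with the largest differences follow.

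In regulation and synthesis these were Insig1 (-0.72), which holds SREBP precursors in the endoplasmic reticulum, Srebf2 (-0.31), which encodes the SREBP of sterol synthesis, and Mid1ip1 (-0.27), an activator of acetyl-CoA carboxylase. The 3 detected Insig1 probes gave -0.78, -0.70 and -0.69. The elongation cycle gave Hacd4 (-0.39), of the dehydratase family, Cyb5r3 (0.38), which passes electrons to the desaturases, and the ketoacyl reductase gene Hsd17b12 (-0.32). Among activation and uptake genes, the acyl-CoA synthetase gene Acsbg1 was 2.04-fold lower, with 107 and 110.6 in the knockdown, against 145 and 145.1 in the control, at its 2 probes. The transporter gene Slc27a4 (-0.42) and Acsl6 (-0.41) were close to background. In storage, Agpat3, an acyltransferase of phosphatidate synthesis, differed by -0.75, with 149.9 in the knockdown and 196 in the control, the monoglyceride lipase gene Mgll by -0.63, and Bscl2, which encodes the lipid droplet protein seipin, by 0.42. In oxidation, Pparg, a nuclear receptor of lipid storage and oxidation, was 2.17-fold higher at a dim probe, with 124.9 in the knockdown and 96.5 in the control, close to the limit of detection. The peroxisomal oxidase gene Acox3 (0.64) and Decr1 (0.45), a reductase for unsaturated fatty acids, were also higher and dim. Pparg, Acox3 and Mgll each rest on 1 of 3 probes, the others being not above background on either array. With a detection limit at 8 SD, Pparg gave no value. Over the other ways of processing, Pparg lay between 0.37 and 1.74, Acsbg1 between -1.52 and -0.43 and Insig1 between -1.09 and -0.29.

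**Figure D5:**
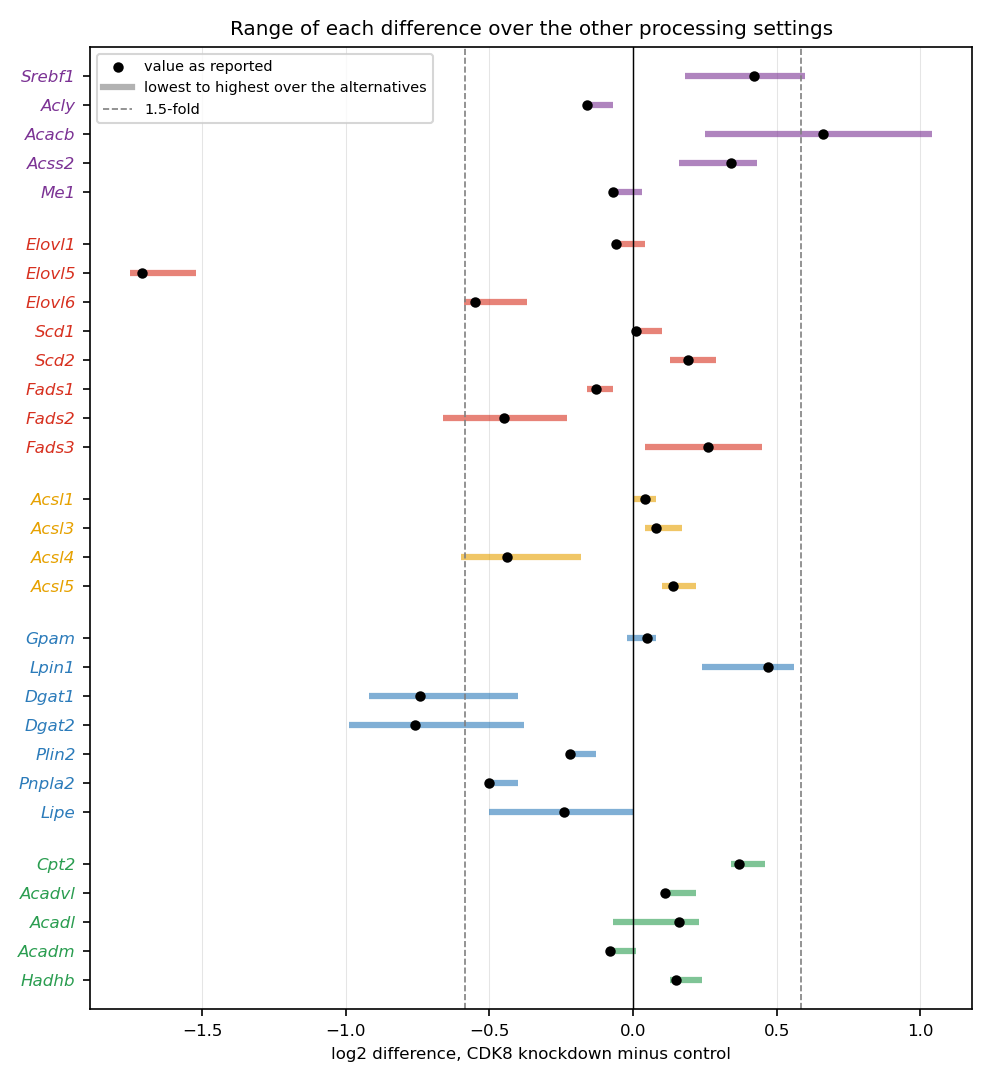
Log2 difference, knockdown minus control, of each of the 29 fatty acid genes as reported (points) and its range over the other ways of processing (bars), with dashed lines at 1.5-fold. The whole range of Elovl5, -1.75 to -1.52, lies beyond 1.5-fold, and those of Dgat1 (-0.92 to -0.40), Dgat2 (-0.99 to -0.38) and Acacb (0.25 to 1.04) cross that line.

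Elovl5 kept its size under each of 14 other ways of processing the arrays, with differences from -1.75 to -1.52. Cpt2 (0.34 to 0.46), Pnpla2 (-0.51 to -0.40), Elovl6 (-0.59 to -0.37), Lpin1 (0.24 to 0.56) and Acsl4 (-0.60 to -0.18) kept their direction in all 14. The sign of Me1, Elovl1, Gpam, Acadl and Acadm changed in 1 alternative each. For 20 of the 29 genes a single probe was detected on both arrays. Of the 9 with more, 7 had probes of one sign, and Acadl and Acsl3 had probes on both sides of 0.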

How the data were processed

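RNA of 1 knockdown and 1 control culture was converted to biotin cRNA (Ambion MessageAmp kit) per the labels' protocols and hybridized to 1 array each. The deposited raw table gives an unnormalized intensity, without background subtraction, for each of 45281 probes and comes from GSGX 1.9.0, per the file headers. It has no detection p-values. How the second deposited table, the authors' processed intensity values, was made is not given in the sources used here. Its values are linear, 29.8% lie below 0, both column medians are 3.4, and the sorted columns differ by at most 0.1. Its scaling and centring are unknown, and it served as an alternative.

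Background was described per array by the peak of dim intensities (88 in the knockdown and 88.59 in the control) and the SD of the values under that peak (2.499 in the knockdown and 2.56 in the control). Probes above the upper 1% of this distribution were detected, a limit that may be lenient, since negative controls can have a longer tail. After normexp correction (limma 3.58.1, R 4.3.3) and addition of 16, which shrinks differences of dim probes, quantile normalization and log2 transformation followed. Probes detected on either array were averaged per gene. A gene found on 1 array was given a bound, using the lowest detected value of the other array where its own was lower. Of 31508 probes with an Entrez gene number, 29586 had it in a RefSeq table of GRCm38.p6, which gave symbols, promoters and gene order. No build is named for the probes.

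The processing was also run on simulated arrays with known folds placed in bright probes only. That run does not cover probes as dim as those of Dgat1, Dgat2 and Acacb. With 1 array per group there was no test, and the small number of arrays sets the precision. Counts past 1.5-fold, 2-fold and the SD between probes stand beside those of all genes. All 34 genes are reported, and of the other pathway genes the 3 with the largest absolute difference per role among those detected on both arrays. The genes and lists were chosen with earlier results of these data known. Alternatives covered the offset, background correction, normalization, detection limit, choice of probes, source table and gene match.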

Additional observations from a re-analysis of the deposited data

How the results depend on the processing

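The medians, the 1.5-fold counts, Cdk8 and 69 named genes detected on both arrays were recomputed under 14 alternatives, where the gene still gave a value (29 fatty acid genes, 15 other pathway genes, 8 neighbours of Elovl5 and 17 markers), and no difference of 1.5-fold or more among them changed sign. The median of the 29 genes stayed between -0.06 and 0.07. The count of fatty acid genes at least 1.5-fold lower (3) was 1 with an offset of 50 or no background correction, where Elovl5 alone remained, and 6 with the background peak subtracted, which added Elovl6, Fads2 and Acsl4. The count at least 1.5-fold higher (1, Acacb) was 0 with an offset of 50, no background correction, the authors' processed table, either other detection limit or all probes averaged, and 2 with the peak subtracted. The storage median of -0.24 was -0.50 with an offset of 4 and with a detection limit at 8 SD, which left fewer genes. The regulation and synthesis median of 0.34 was 0.13 with a limit at 8 SD, 0.16 with the upper 5% limit or all probes averaged, and 0.18 without background correction. Of the other pathway genes, 4 lower and 2 higher at 1.5-fold became 1 and 0 with an offset of 50, 0 and 0 without background correction, 4 and 6 with the peak subtracted, 2 and 0 with all probes averaged, and 3 and 1 with the processed table or a limit at 8 SD. Cdk8 was -1.71 without background correction and -0.69 with undetected probes averaged in. Over all genes, 302 lower and 282 higher at 1.5-fold became 148 and 138 with an offset of 50, 624 and 574 with an offset of 4, 95 and 99 without background correction, and 441 and 425 with the peak subtracted. These alternatives differ in how far they shrink or stretch the differences of dim probes. With the SYMBOL column only, Me1 and Plin2 gave no value, and with a limit at 8 SD neither did Acacb, Fads3, Gpam or Lipe. No paired analysis was possible because each group had 1 array, and leaving out an array was not possible for the same reason.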
